A study of Mus musculus with 12 samples.

Results

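The data compared here are the MED1 and H3K27ac ChIP-seq levels of control embryonic stem cells (ESCs) over the unmethylated subregions of their super-enhancers (SEs). The members were every subregion with a value for both antibodies, which is every subregion of the whole series, joined on position and methylation type. Of these, 183 were persistently unmethylated (PU), meaning unmethylated in ESCs and in epiblast stem cells (EpiSCs), and 488 were differentially methylated (DM), meaning unmethylated in ESCs and methylated in EpiSCs. The control cells were mouse Esrrb f/f ESCs, which carry loxP-flanked Esrrb alleles and are called wild-type in the labels. They were grown on gelatin in medium with serum and LIF. There were 2 libraries for each antibody and 2 for input DNA, and 1 value per subregion and antibody. The labels do not say how the 2 libraries of an antibody entered that value. Values of the Esrrb -/- cells were not used. There was no expression measurement to check the cell type against RNA markers.

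MED1 is a subunit of Mediator, the complex that links transcription factors at enhancers to RNA polymerase II at promoters. H3K27ac is acetylation of lysine 27 on histone H3, a mark of nucleosomes that flank active enhancers and promoters. An SE is a cluster of enhancer units with a high density of both signals, and in ESCs SEs lie near the genes of pluripotency factors. Since ESC SEs were themselves defined by MED1 and H3K27ac, high levels of either signal across the members are a consequence of their selection. Levels are in RPKM, reads scaled to the length of a subregion and to a total, and the relation between the antibodies is given as log2((MED1 + 1)/(H3K27ac + 1)), called the log2 ratio. With 1 value per antibody there was no spread between replicates and no test, and all comparisons are descriptions. Intervals are exact 95% binomial intervals from the reads behind each value, and cover counting error only. They take reads as independent. The libraries were paired-end, and if both mates of a fragment were counted the intervals are too narrow.

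The sequences of short subregions near pluripotency genes give examples of higher and lower log2 ratios at the level of bases. They are the 3 highest and the 3 lowest log2 ratios among subregions of at most 300 bases with at least 20 MED1 reads near the listed genes, chosen after their values were seen, and a window of the Esrrb subregion with the highest log2 ratio of all. All are the plus strand of mm9, and capitals mark matches on either strand to AAGGTCA (bound by ESRRB and NR5A2), TTTGCAT (OCT factors), CATTGTT (SOX factors), GGGTGTG (KLF factors), GGGCGG (the GC box) or TTCCNGGAA (STAT factors).
Sox2 PU, chr3:34656742-34656937: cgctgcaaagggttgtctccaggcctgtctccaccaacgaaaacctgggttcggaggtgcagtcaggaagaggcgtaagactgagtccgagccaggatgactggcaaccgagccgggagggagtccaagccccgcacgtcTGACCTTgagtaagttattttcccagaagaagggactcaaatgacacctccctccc
Tet1 PU, chr10:62355594-62355846: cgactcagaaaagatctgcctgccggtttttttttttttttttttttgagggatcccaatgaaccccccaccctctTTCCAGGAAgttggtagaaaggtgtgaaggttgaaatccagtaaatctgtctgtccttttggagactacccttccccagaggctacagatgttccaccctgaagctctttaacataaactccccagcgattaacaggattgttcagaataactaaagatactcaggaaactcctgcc
Med13l DM, chr5:118951712-118951967: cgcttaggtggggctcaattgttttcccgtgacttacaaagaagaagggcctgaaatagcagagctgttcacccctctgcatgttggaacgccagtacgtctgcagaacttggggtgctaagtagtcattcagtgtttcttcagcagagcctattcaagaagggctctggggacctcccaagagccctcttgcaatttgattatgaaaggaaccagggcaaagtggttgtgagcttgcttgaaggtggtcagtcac
Med13l DM, chr5:118959568-118959808: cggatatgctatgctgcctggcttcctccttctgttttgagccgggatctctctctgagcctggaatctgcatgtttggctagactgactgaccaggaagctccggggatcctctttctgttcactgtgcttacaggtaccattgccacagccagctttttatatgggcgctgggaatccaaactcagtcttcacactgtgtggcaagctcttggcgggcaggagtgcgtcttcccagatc
Sall4 DM, chr2:168606223-168606414: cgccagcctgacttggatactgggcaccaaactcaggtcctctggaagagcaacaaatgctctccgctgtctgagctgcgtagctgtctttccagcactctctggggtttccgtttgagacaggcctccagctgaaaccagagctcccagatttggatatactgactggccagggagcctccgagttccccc
Prdm14 DM, chr1:13091381-13091615: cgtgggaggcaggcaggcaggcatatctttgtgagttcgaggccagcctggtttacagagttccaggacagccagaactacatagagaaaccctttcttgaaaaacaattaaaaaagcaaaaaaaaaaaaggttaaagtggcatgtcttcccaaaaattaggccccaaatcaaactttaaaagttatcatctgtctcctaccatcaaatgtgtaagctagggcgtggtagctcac
Esrrb DM window, chr12:87842636-87842713: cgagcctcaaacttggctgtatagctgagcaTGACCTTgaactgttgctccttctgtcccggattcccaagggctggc
The Sox2 PU sequence held 1 AAGGTCA match, on the minus strand. The Tet1 PU sequence held a TTCCNGGAA match, which reads the same on both strands and so counts as 2 in a search of both. The other 4 whole subregions held no match to the 6 motifs. A match is a description of the letters, not a bound site. In the order shown, the log2 ratios of the whole subregions were 3.03, 3.00, 1.51, -0.61, -0.39 and -0.11. The negative ones are not the lowest of all subregions. The Prdm14 value rested on 27 MED1 reads, and its interval of -0.79 to 0.52 covered the median of all subregions.

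MED1 varied far more between subregions than H3K27ac did. MED1 ranged from 78.8 to 4623 RPKM with a median of 586, and H3K27ac from 64.8 to 1358 RPKM with a median of 520. The SD of the log2 level was 1.07 for MED1 and 0.61 for H3K27ac. Both signals tended to be high at the same subregions, with a Spearman correlation of 0.48 over the 183 PU and 488 DM subregions together, which share libraries and, within a block, neighbouring sequence. The correlation was 0.44 over the 183 PU and 0.52 over the 488 DM subregions. The log2 ratio followed MED1 (Spearman 0.82) and had almost no relation to H3K27ac (Spearman -0.03). MED1 and H3K27ac are both parts of the ratio. These values therefore restate the wider spread of MED1 and the correlation of both signals, and are not a separate result. With the lowest 25% by mean signal left out, the correlation between MED1 and H3K27ac was 0.10. That filter takes out subregions low in both signals, which by itself tends to lower the correlation.

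**Figure D1:**
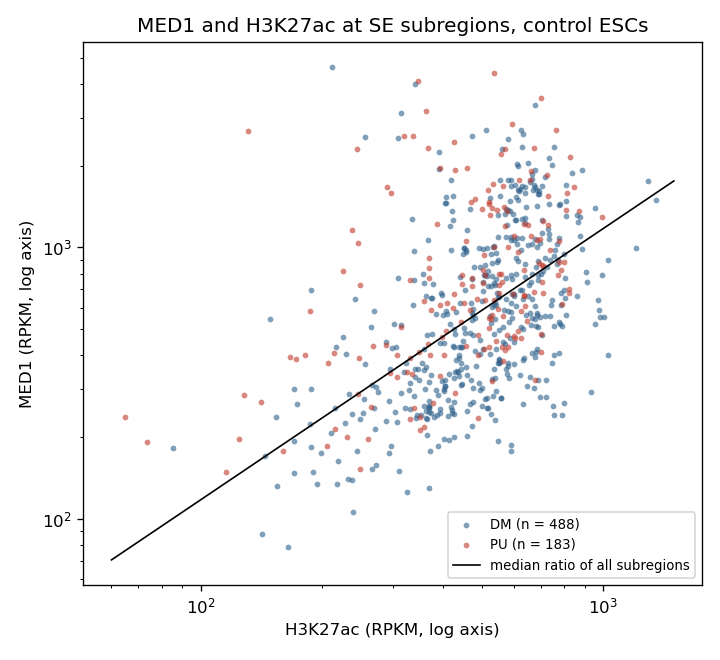
Each point is 1 subregion, with H3K27ac on the x axis and MED1 on the y axis, both in RPKM on log axes, and the line marks the median ratio. MED1 spans 78.8 to 4623 RPKM and H3K27ac 64.8 to 1358 RPKM, and PU points lie above the line more often than DM points.

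The median log2 ratio of all subregions was 0.23 (quartiles -0.34 and 0.91). Its zero has no meaning of its own, because each antibody was scaled to its own total, and scaling both to the same total over the subregions moved the median to -0.40. Log2 ratios are therefore read against the median of all subregions. Of all subregions, 115 (17.1%) lay at least 2-fold above that median and 60 (8.94%) at least 2-fold below it. The counting interval lay wholly above the median in 272 (40.5%) and wholly below it in 244 (36.4%). Counting error, with reads taken as independent, made up 3.05% of the variance of the log2 ratio.

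PU subregions had more MED1 for their H3K27ac than DM subregions. The median MED1 level was 679 RPKM at PU and 555 RPKM at DM, whereas the median H3K27ac level was 506 RPKM at PU and 526 RPKM at DM. The median log2 ratio was 0.60 at PU and 0.15 at DM. The types overlapped widely, from -1.06 to 4.34 at PU and from -1.73 to 4.44 at DM. At least 2-fold above the median of all were 48 of 183 PU subregions (26.2%) and 67 of 488 DM subregions (13.7%), against 17.1% of all. At least 2-fold below it were 2 PU subregions (1.09%) and 58 DM subregions (11.9%), against 8.94% of all. With subregions of at least 500 bp the PU minus DM difference in median log2 ratio was 0.26, against 0.45 over all.

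The difference between the type medians was widest in the shortest subregions. In the shortest of 5 equal length bins, from 58 to 416 bp, the median log2 ratio was 0.82 at 33 PU and -0.31 at 102 DM subregions. It was 0.70 and 0.01 in the next bin, 0.64 and 0.35 in the middle one, and 0.15 and 0.02 in the next. In the longest bin, from 1903 to 6869 bp, the order was the other way, at 0.27 for 28 PU and 0.47 for 106 DM subregions. Length and log2 ratio thus ran in opposite directions in the types, with a Spearman correlation of -0.22 over PU and 0.24 over DM. Short PU subregions had low H3K27ac, with a median of 386 RPKM in the shortest bin against 591 RPKM in the longest, while their MED1 medians were 616 and 749 RPKM.

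**Figure D2:**
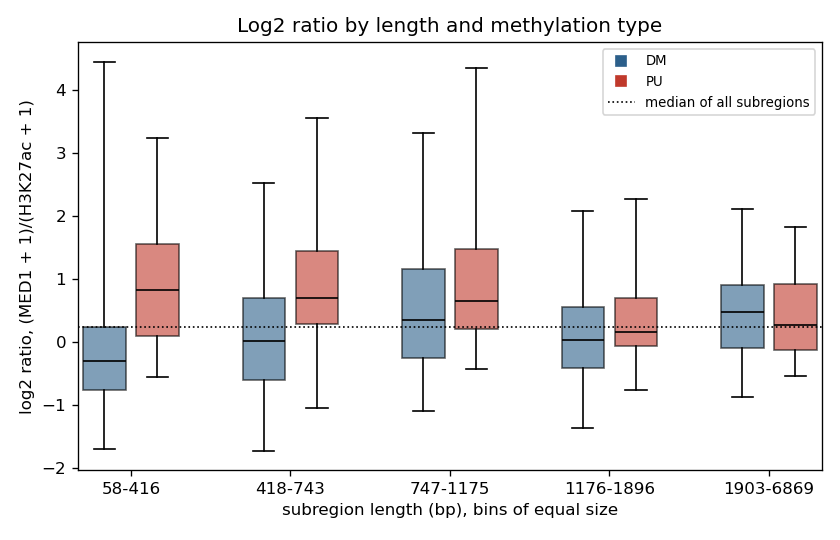
Log2 ratio (y axis) by subregion length in bp (x axis, 5 bins of about equal size) for DM and PU, with boxes at the quartiles, a line at the median, whiskers to the extremes and the median of all subregions dotted. The PU median is 0.82 in the shortest bin against -0.31 for DM, and 0.27 against 0.47 in the longest.

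Subregions less than 15 kb apart were joined into 224 blocks, of which 106 held both types, 95 only DM and 23 only PU. Within the 106 mixed blocks the mean log2 ratio of PU exceeded that of DM in 84 (79.2%), with a median difference of 0.66, and of 0.49 with subregions of at least 500 bp. The contrast was in MED1, with a median log2 difference of 0.62, and not in H3K27ac, with a median log2 difference of -0.09. PU and DM subregions less than 500 bp apart formed 146 adjacent pairs in 86 blocks, a comparison chosen after the values were seen. A subregion with such a neighbour on each side entered a pair with each, so pairs can share members and are not independent. The gap within a pair had a median of 91 bp and was as small as 2 bp. ChIP fragments can be longer than such gaps, so neighbours can share signal, and the effect of this on the differences was not tested. PU had the higher MED1 in 130 pairs (89.0%), with a median log2 difference of 0.78, and in 93.8% of pairs with subregions of at least 500 bp. PU had the higher H3K27ac in 70 pairs (47.9%), with a median log2 difference of -0.02. Both signals were higher at PU in 67 pairs and both lower in 13. In 63 pairs MED1 was higher and H3K27ac lower at PU, and in 3 pairs the reverse held. The H3K27ac share depended on the pairs taken, at 64.6% with subregions of at least 500 bp and 38.4% without those near gene starts.

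**Figure D3:**
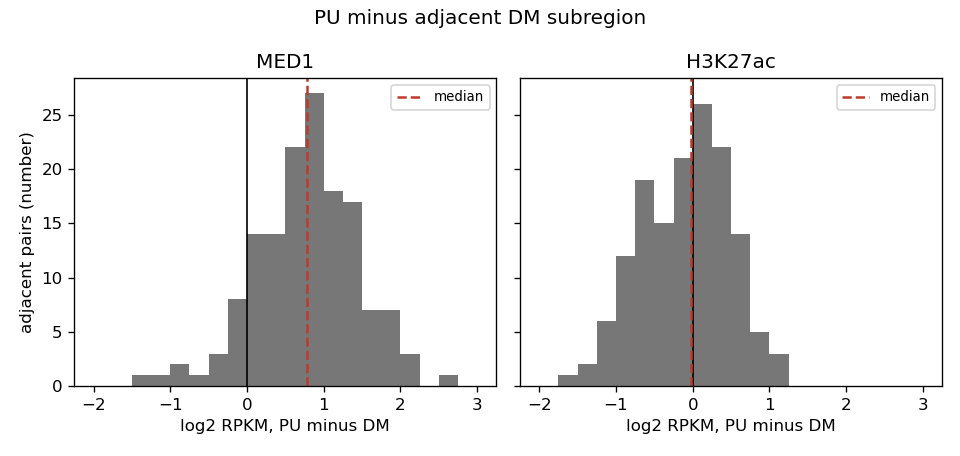
Histograms of the log2 RPKM difference, PU minus its adjacent DM subregion (x axis), for MED1 and H3K27ac over 146 pairs (y axis, number of pairs), with a dashed line at the median. MED1 differences centre on 0.78 and H3K27ac differences on -0.02.

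DM subregions differed by the block in which they lay. In blocks without PU, 210 DM subregions had a median MED1 of 752 RPKM, a median H3K27ac of 527 RPKM and a median log2 ratio of 0.47. In blocks that also held PU, 278 DM subregions had a median MED1 of 442 RPKM, a median H3K27ac of 526 RPKM and a median log2 ratio of -0.18. The H3K27ac medians of both kinds of DM subregion were thus close, and the MED1 medians were not. The order held in each of 3 equal length classes, at 0.39 against -0.36 for the short (58 to 620 bp), 0.55 against -0.10 for the middle (623 to 1334 bp) and 0.46 against 0.13 for the long class. This comparison was also chosen after the values were seen.

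Gene starts and distal sites had similar medians over both types together. The 147 subregions within 1 kb of an annotated gene start had a median log2 ratio of 0.18, and the 524 distal ones 0.23. Among PU subregions the medians were 0.27 at gene starts and 0.65 at distal sites, and among DM subregions 0.03 and 0.15. By annotation, 334 intergenic subregions had a median of 0.43, 128 exonic ones 0.21 and 209 intronic ones 0.02.

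Subregions with an AAGGTCA match, the site of the orphan nuclear receptors ESRRB and NR5A2, had a higher log2 ratio among DM. Over PU of all lengths together they did not. The motif was in 236 subregions (35.2% of all), and in 13.8% of the short, 37.4% of the middle and 54.5% of the long class. At DM the median log2 ratio was 0.56 in 184 subregions with it and -0.20 in 304 without it. At PU it was 0.59 in 52 with it and 0.60 in 131 without it. These PU medians are pooled over length and are not given here by length class. Longer PU subregions had lower log2 ratios (Spearman -0.22) and longer subregions held the motif more often, so pooling can hide a PU difference. The DM difference was present in each length class, where the medians with and without the motif were 0.80 and -0.32 in the short, 0.58 and -0.19 in the middle and 0.51 and -0.04 in the long class. Only 16 short DM subregions held the motif. With 1 value per block and type the difference over both types was 0.14, against 0.52 over single subregions. H3K27ac medians at DM were 545 RPKM with the motif and 511 RPKM without it, and MED1 medians 785 and 421 RPKM.

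**Figure D4:**
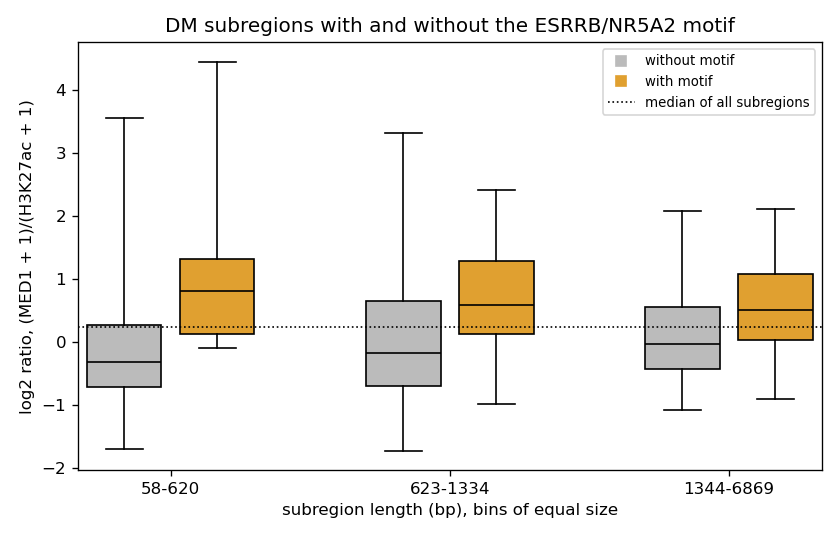
Log2 ratio (y axis) of DM subregions with and without an AAGGTCA match by length class in bp (x axis), with boxes at the quartiles, a line at the median, whiskers to the extremes and the median of all subregions dotted. The medians are 0.80 and -0.32 in the short class, 0.58 and -0.19 in the middle and 0.51 and -0.04 in the long.

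TTTGCAT, the motif of OCT factors, also went with a higher log2 ratio, and at both types. The medians with and without it were 0.84 and 0.40 at PU and 0.46 and 0.00 at DM. The difference over both types was 0.91 in the short length class, as for AAGGTCA, 0.45 in the middle and 0.25 in the long. TTTGCAT was in 14.7% of the lowest, 24.2% of the middle and 33.0% of the highest of 3 equal classes of the log2 ratio, and in 24.0% of all. For CATTGTT these shares were 14.3%, 19.7% and 24.1%, and 19.4% of all. The ratio classes differ in length, as the lowest held 96 short subregions and the highest 65. CATTGTT was in 7.11% of short and 33.9% of long subregions. Within the middle length class its shares were 17.2%, 20.8% and 14.0%, while they rose in the short and long classes. GGGTGTG was in 27.2%, 36.8% and 37.9%, and 34.0% of all. GGGCGG, which was in 55.7% of PU and 29.5% of DM subregions and 36.7% of all, followed no order with the log2 ratio, at 32.6%, 40.8% and 36.6%. TTCCNGGAA was in 2.68%, 5.38% and 7.14%, and 5.07% of all. Its shares were 6.25%, 5.56% and 4.65% within the middle length class and 1.56%, 9.20% and 15.1% within the long. Only 2 short subregions held it. For TTTGCAT and GGGTGTG the share was higher in the highest than in the lowest ratio class within each length class.

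The highest log2 ratio of all lay in an intron of Esrrb, the gene of the orphan nuclear receptor that is deleted in the other cells of the study. This DM subregion, chr12:87842636-87842944, had 4623 RPKM of MED1 and 211 RPKM of H3K27ac, a log2 ratio of 4.44 (interval 4.13 to 4.78). Its neighbours in the block had log2 ratios of 1.31, 0.55 and 1.73, so that H3K27ac was lowest where MED1 was highest. The second Esrrb block held 5 DM subregions at 1.21, 0.93, 0.50, 0.97 and 2.51. All 9 Esrrb subregions lay above the median of all.

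DM was the more common type, with 488 subregions against 183 PU over all lengths. The numbers of each type among those of at least 500 bp are not given here. Among the 495 subregions of at least 500 bp, the 6 highest log2 ratios were 5 PU and 1 DM. The 6 lowest were all DM, which says little about type, as DM was the more common type over all lengths. The highest was a PU subregion 472 bp from Gtf3c6, chr10:39977943-39978741, with 2678 RPKM of MED1 against 131 of H3K27ac (4.34, interval 4.10 to 4.62). It overlaps an annotated U3 small nucleolar RNA gene, a family with near-identical copies, so its reads are uncertain. The next was a PU subregion 452 bp from Mir290, the first gene of a microRNA cluster of ESCs, at 4110 and 348 RPKM (3.56). The DM subregion 13500 bp from Zfp42, which encodes the ESC marker REX1, had 2560 and 257 RPKM (3.31). The other 3 lay between Stoml1 and Loxl1 (3.13), near Dennd2a (2.93) and in introns of Ctbp2 and Fgfr2 (2.66), and had 2327 to 3185 RPKM of MED1. MED1 was high and H3K27ac below its median at all 6.

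At the 6 lowest log2 ratios of that length MED1 was low, and H3K27ac was above its median except at the Gpr37l1 subregion. Both sets were picked by the log2 ratio itself. The DM subregion near Rbpj, the DNA-binding effector of Notch signalling, had 178 RPKM of MED1 and 591 of H3K27ac (-1.73, interval -2.19 to -1.31). Those at Tnip1, Tmem220, Mif, Rbfox2 and Gpr37l1 were at -1.65, -1.64, -1.57, -1.53 and -1.49. MED1 was 130 to 268 RPKM at these 6, on 30 to 70 reads, and H3K27ac 368 to 800 RPKM. Among subregions of at least 500 bp, the 3 highest H3K27ac levels were at a DM subregion near Klf13 (1006 RPKM, log2 ratio -0.86), a PU subregion in Lrrc2 (997 RPKM, 0.38) and a DM subregion near Nanog (977 RPKM, -0.74). None of these was among the 3 highest MED1 levels of that length, which were at 2 PU subregions near Mir290 (4110 and 3548 RPKM) and the one between Stoml1 and Loxl1 (3185 RPKM). Shorter subregions reached higher levels, such as 1292 RPKM of H3K27ac near Klf2 and 4623 RPKM of MED1 in Esrrb.

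At the core pluripotency genes several PU subregions had a higher log2 ratio than their DM neighbours. In the distal Sox2 block, 102537 bp from the gene, the PU subregion shown above had 4393 RPKM of MED1 and a log2 ratio of 3.03 (interval 2.75 to 3.32), between DM subregions at 1.49 and 1.22. H3K27ac was 536 RPKM there and 604 and 694 RPKM beside it. The block at Sox2 itself held PU subregions only, at 1.23 and 1.40, close to the distal DM values. DM subregions in blocks without PU were at 0.82 near Sox2 and 0.42 near Nanog. In the block at Nanog, the homeobox gene of naive pluripotency, both PU subregions were at 1.65, with 1625 and 1511 RPKM of MED1. The 4 DM subregions of that block were at -0.35, -0.33, -0.74 and -0.15, and the first of these rested on 10 MED1 reads. At Pou5f1, which encodes OCT4, the PU subregions were at 0.14 and 0.73 and the DM one between them at -0.41. The block at Slc2a3, also within 120 kb of Nanog, showed no such order, with PU at 0.90 and DM at 0.96 and 1.06. Over the 19 subregions near Pou5f1, Sox2 and Nanog the median was 0.90, and 6 (31.6%) lay at least 2-fold above the median of all, against 17.1% of all subregions.

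Near the 12 genes of naive pluripotency, 50 subregions had a median of 0.65, and 9 (18%) lay at least 2-fold above the median of all, close to the 17.1% of all subregions. The Klf4 subregions were at 0.97 and 1.26, those of Tdh, threonine dehydrogenase, at 1.15 and 0.64, and those of Klf2 at 0.43 and 0.44. Subregions of Tet2, a methylcytosine dioxygenase, were at 0.75, 0.16 and 0.91. Values below the median of all were found in Nr5a2, where 4 PU subregions ranged from -0.40 to 0.36, and at Tfcp2l1, where 2 DM subregions were at -0.55 and 0.66. At Klf5 the 3 DM subregions were at 1.00, -0.14 and -0.03. The 8 subregions at Tbx3 ranged from -0.26 to 1.53 and the 7 at Prdm14 from -0.11 to 1.09. The blocks near Dppa3 are among those near Nanog, and their subregions are counted in both the naive and the core list.

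Near the 7 genes of the shared list, 28 subregions had a median of 0.25, close to that of all, and 5 (17.9%) lay at least 2-fold above it, close to the 17.1% of all subregions. Tet1 held a PU subregion at 3.00, with 2568 RPKM of MED1 and 321 of H3K27ac, while its 5 neighbours ranged from 0.00 to 1.14. At Smarcad1, a chromatin remodeller gene, the PU subregion was at 2.52 between DM subregions at 0.56 and 1.50. At Klf13 the PU subregion was at 1.33 and the DM ones at -0.38 and -0.86. Near Med13l, which encodes a subunit of the Mediator kinase module, the PU subregion was at 0.38 and 4 DM ones at -1.0, 0.28, 1.51 and -0.61. PU exceeded DM also at Otx2 (0.51 and -0.44) and Mycn (0.24 and -0.34), and at Sall4 the PU subregions were at 0.27 and 0.38 and the 5 DM ones from -0.74 to 0.17.

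Near the 6 signalling genes, 19 subregions had a median of 0.73, and 5 (26.3%) lay at least 2-fold above the median of all, against 17.1% of all subregions. The 3 PU subregions near Lefty1 and Lefty2, which encode inhibitors of Nodal, were at 1.98, 2.52 and 0.33. At Id1, a target of BMP signalling, the PU subregions were at 0.93 and 0.66 and the DM ones at 0.00 and -1.05, the latter on 19 MED1 reads. At Socs3, an inhibitor of JAK/STAT signalling, PU was at 0.62 and DM at 0.15. At Smad7, an inhibitor of TGF-beta signalling, the PU subregions were at 2.07 and 0.73 and the DM ones of that block at 0.12, -0.54 and -0.72. A DM subregion of the neighbouring block was at 1.87. In the Arhgap26 block, within 120 kb of Spry4, types were close, with PU at 1.08 between DM subregions at 0.84 and 0.89.

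**Figure D5:**
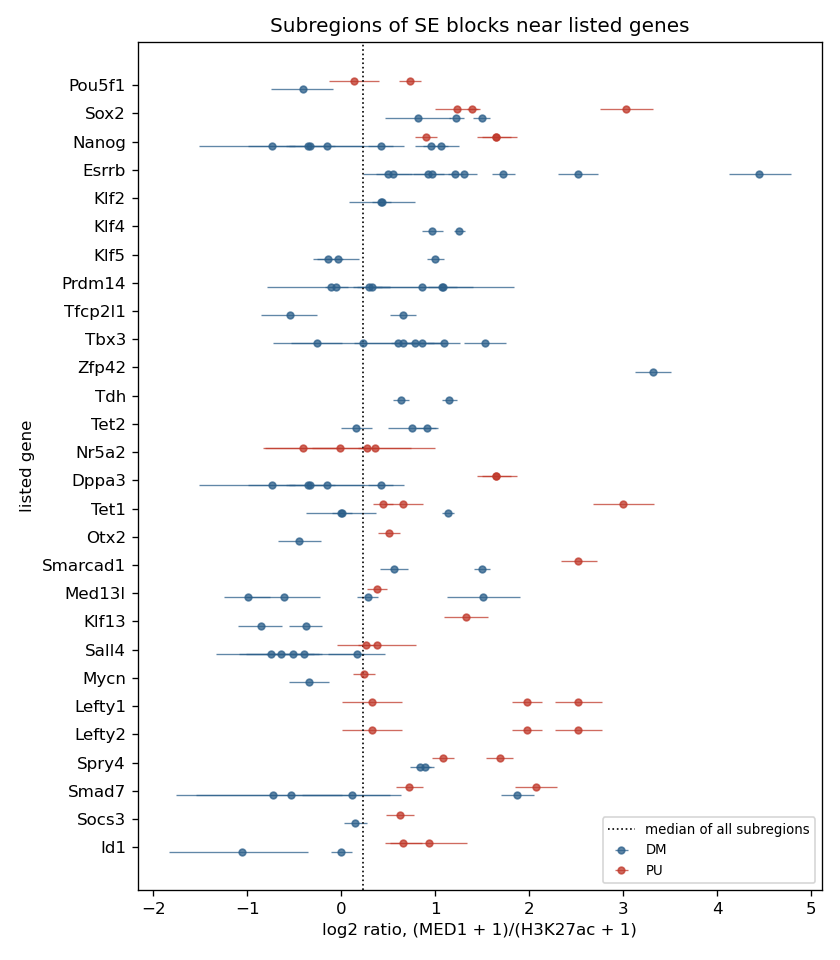
Log2 ratio (x axis) of each subregion in blocks near the 28 listed genes (y axis), with bars for the 95% counting interval and the median of all subregions dotted. The Esrrb subregion at 4.44, Zfp42 at 3.31, Sox2 at 3.03 and Tet1 at 3.00 lie farthest to the right.

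Within blocks the highest MED1 and the highest H3K27ac were at the same subregion in some blocks and at different ones in most. Of 108 blocks with at least 3 subregions, the subregion with the most MED1 also had the most H3K27ac in 30, and had the least H3K27ac in 23. These blocks held a median of 4 subregions, so unrelated signals would also peak at different subregions in most blocks. The counts of 30 and 23 were not compared with those of a random order. MED1 spanned a median 2.93-fold range within a block and H3K27ac a 2.03-fold range, and MED1 spanned the wider range in 82 blocks (75.9%). In the 164 blocks of at least 2 subregions, 52.7% of the variance of the log2 ratio was within blocks. The widest range of log2 ratio, 4.25, was in an intergenic block of chromosome 9 with 3 DM subregions at 3.31, 2.31 and 3.55, another at -0.69 on 9 MED1 reads, and a PU subregion at 1.17. The next were Esrrb (3.90) and Mir290 (3.59). The narrowest were Slc2a3 (0.16), Arhgap26 (0.24) and Agtrap (0.29).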

How the data were processed

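The RPKM values were computed by the authors from ChIP-seq reads of Esrrb f/f ESCs, for each SE subregion. There were 2 labelled libraries but 1 value per antibody, which was taken here as their pool. The submitters' processing notes name Trimmomatic, Bowtie2, Picard and the build mm9. RPKM times length gave whole reads for 100% of values, 291893 for MED1 (5 to 3908 per subregion) and 618492 for H3K27ac (32 to 5974). The totals implied by the RPKM scale were 424897 and 1396982 reads, of which the subregions hold 68.7% and 44.3%. These totals are far below the depth of a whole ChIP-seq library, so the values are not RPKM of whole libraries and these shares are not shares of all reads. What the totals count is not given in the sources used here. Here the log2 ratio was taken with a pseudocount of 1 RPKM, and its exact conditional binomial interval from the reads. Sequences, motifs and genes came from the mm9 assembly and GENCODE annotation. Tfcp2l1 was found under its older symbol Tcfcp2l1. Named subregions were the 6 highest and 6 lowest log2 ratios and the 3 highest levels of each antibody among those of at least 500 bp, all blocks within 120 kb of 28 listed genes, and the 3 widest and 3 narrowest blocks of at least 3 subregions. Members and lists were chosen with earlier results of these data known. The read recovery and intervals were tested on simulated data. Python 3.11.15 tools (numpy, pandas, scipy, matplotlib) were used. Input and Esrrb -/- values were not used.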

Additional observations from a re-analysis of the deposited data

How the results depend on the processing

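No paired analysis was possible because each antibody has 1 value per subregion, and for the same reason no library could be left out in turn. Scaling the reads to an equal total turned the sign of the median log2 ratio, to -0.40 for all, -0.037 for PU and -0.49 for DM, and shifted the 134 named subregions by a median of -0.63, with 34 changes of sign. Pseudocounts of 0.1 or 10 RPKM changed no sign among these. With subregions of at least 500 bp the median was 0.32 for all and 0.25 for DM, PU minus DM was 0.26, and the Spearman correlation of log2 ratio and length was -0.0093 in place of 0.12. In adjacent pairs of that length H3K27ac was higher at PU in 64.6% and the median PU minus DM was 0.57. Above the 25th percentile of mean RPKM the median was 0.44 for all and 0.35 for DM. The correlation of MED1 and H3K27ac, which that filter by itself tends to lower, was 0.10. The mean log2 ratio of all was 0.34. With 1 value per block and type the median was 0.42 for all and 0.25 for DM, MED1 and H3K27ac correlated at 0.42 and log2 ratio and length at 0.015, gene-start minus distal was -0.28 and AAGGTCA minus none 0.14. Without subregions near gene starts, adjacent pairs had higher H3K27ac at PU in 38.4% and a median PU minus DM of 1.01. Another 100 values stayed within their tolerance. The comparisons of adjacent pairs and of DM by block, and a block gap of 5 kb, were chosen after seeing the data. Causes were not tested. Low read numbers limit the short subregions, down to 5 MED1 reads.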
